A study of Mus musculus with 11 samples.

Results

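Ribosome biogenesis and nucleolar genes were followed in orthotopic pancreatic tumours whose host mice had lost protein kinase N2 (PKN2) or kept it. The 39 genes were taken from a list of nucleolar factors with the transcription factor Myc at its end, and each was matched to a single row of a count table of 54232 genes through GENCODE M21. Nop16, a nucleolar factor of large ribosomal subunit assembly, was chosen by its lower counts in KO tumours, so its genotype difference is given as a description without a test. The other 38 genes were not chosen for their own values, but they were listed with earlier results of the same tumours known. All 39 passed the filter on low counts and were among the 16536 genes tested.

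The series held 11 tumours, 6 from PKN2 KO hosts (A to F) and 5 from PKN2 WT hosts (A to E). All hosts were adult female C57BL/6 mice carrying RosaCreERT2, a tamoxifen-inducible Cre recombinase expressed from a ubiquitous promoter, and all received tamoxifen; KO hosts had PKN2 fl/fl alleles and WT hosts PKN2+/+. After the deletion, 1000 TB32048 cells in DMEM and Matrigel were placed in the pancreas of each animal. TB32048 is a mouse carcinoma line of the KPC model and keeps its own Pkn2, so the deletion affected every host cell type and no carcinoma cell. RNA was taken from a piece of each tumour, and a count therefore pools host and carcinoma transcripts.

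Ribosomes are assembled in the nucleolus. RNA polymerase I copies the ribosomal DNA into a long precursor, small nucleolar ribonucleoproteins of the box C/D and box H/ACA classes guide its methylation and pseudouridylation, and large sets of processing factors cut and fold it into the small and the large subunit. The Myc protein, with its partner Max, binds E-box motifs near many of these genes and is known as a general activator of ribosome production, which is high in proliferating carcinoma cells.

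The libraries held 22791627 to 28017673 counts (KO) and 16294128 to 31121422 counts (WT), and members had between 132 and 42251 counts in a tumour. WT A, B and C stood apart from the other 8 tumours. The Spearman coefficient over genes between transcript length and the deviation of a gene from its mean level was -0.57, -0.54 and -0.20 in WT A, B and C, against 0.26 in WT D, 0.41 in WT E and 0.14 to 0.40 in KO tumours. Ribosomal RNA genes took 1.31%, 6.39% and 1.40% of counts in WT A, B and C, 0.765% in WT D, 0.241% in WT E and 0.308% to 0.739% in KO tumours. Short transcripts thus took a larger share in 3 of 5 control tumours than in the others, and values without those tumours are given for every member in the plot of fold changes and beside the main results. Levels are given as CPM, counts scaled to a common library size with TMM factors. Pkn2 itself was at a mean of 96.6 ± 9.34 CPM in KO (SD, n = 6) against 96.7 ± 34.6 CPM in WT (SD, n = 5), and its log2 fold change of -0.002 was -0.46 without WT A, B and C, since WT D and E stood at 138 and 129 CPM. Reads over the whole gene, in pieces that include carcinoma cells with an intact gene, do not check the deletion.

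To ask how the nucleolar genes responded to loss of PKN2 in the host, KO and WT tumours were compared gene by gene. Of the members other than Nop16, 25 had lower fitted levels in KO tumours and 13 had higher ones, and none was called at an adjusted p under 0.05 by edgeR. The numbers of members called lower and higher were both 0 of 38, Nop16 left out, beside 0% of all 16536 genes called lower and 0.0181% called higher. At an unadjusted p under 0.05, 12 of 38 members (31.6%) were lower in KO and 0 were higher, beside 15.5% of all genes lower and 8.57% higher. Without WT A, B and C these counts were 12 lower and 1 higher, beside 9.01% and 8.21% of all genes. By DESeq2, 6 of 38 members were lower at an adjusted p under 0.05 and 0 higher, beside 4.85% and 3.21% of all genes. These were Nop56, Nhp2, Nop10, Wdr12, Nip7 and Npm1. The edgeR count depended on the control tumours. Without WT E, 8 of 38 members were called lower, beside 7.46% of all genes, and without WT D 3 were, beside 3.87%. The median log2 fold change (KO minus WT) of the 38 members was -0.21 and that of all genes tested was -0.03 (members -0.06 without WT E), and 25 of 38 members (65.8%) had a log2 fold change below 0, as did 52% of all genes. In 3 of 38 members every KO tumour lay below every WT tumour, namely Nop56, Npm1 and Wdr12; 2.01% of all genes had that pattern. The opposite pattern was seen in 0 members and 1.59% of all genes. In bulk tumour pieces, fewer cells of a type and less RNA per cell cannot be told apart.

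**Figure D1:**
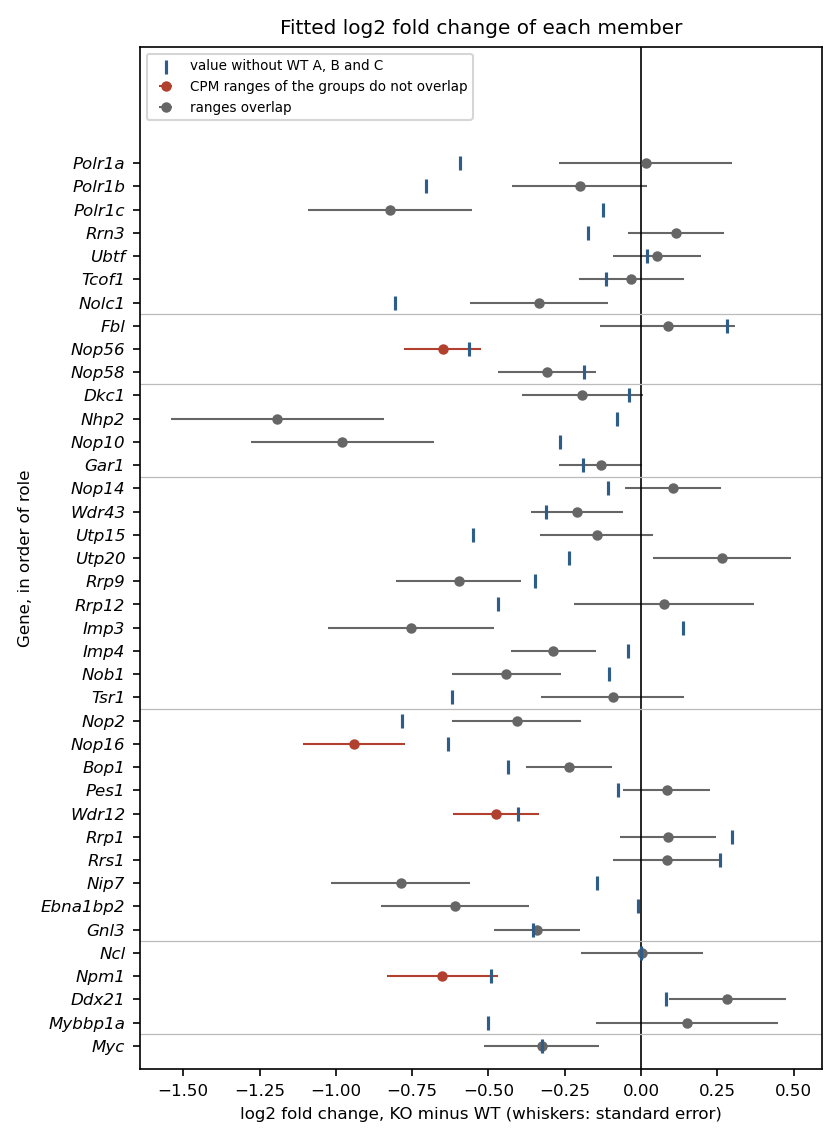
Log2 fold change of each member, KO minus WT, from the edgeR fit to 11 tumours, in order of role from RNA polymerase I factors at the top to Myc at the bottom; whiskers are standard errors, red points are genes whose CPM ranges do not overlap between groups, and blue ticks give the value without WT A, B and C. Points reach from -1.19 for Nhp2 to 0.28 for Ddx21, and the ticks of Nhp2, Nop10, Imp3 and Nip7 lie much closer to 0 than their points.

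Nop16 (ENSMUSG00000025869, chromosome 13, 54584185 to 54590090, minus strand, protein coding) was at 29.5 CPM in the lowest KO tumour, at a median of 33.1 and at 38.2 in the highest. In WT tumours it was at 65.7 CPM in A, 91.0 in B, 59.6 in C, 50.4 in D and 53.3 in E. Every KO tumour lay below every WT tumour, and WT B was the highest of all. The group means were 33.3 ± 3.52 CPM (KO, SD, n = 6) and 64.0 ± 16.2 CPM (WT, SD, n = 5), a log2 fold change of -0.94 with a standard error of 0.17. The difference was smaller, -0.63, against WT D and E alone, -0.68 with ribosomal RNA share in the model and -0.72 with an offset for gene length. Higd2a, a mitochondrial cytochrome c oxidase assembly gene that starts on the opposite strand within 1000 bases of Nop16, had means of 52.3 ± 5.08 CPM (KO, SD, n = 6) and 93.0 ± 53.3 CPM (WT, SD, n = 5), with a log2 fold change of -0.83 (SE 0.27, adjusted p = 0.111) that was -0.39 without WT A, B and C. KO values of Higd2a ran from 45.5 to 60.1 CPM and overlapped with WT E at 59.5, whereas 187.7 CPM were found in WT B.

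To ask whether the lower level of Nop16 was shared with Myc, the same values were read for Myc (chromosome 15, 61985391 to 61990374, plus strand). Myc was at 99.5 CPM in the lowest KO tumour, at a median of 107 and at 122 in the highest. In WT tumours it was at 129 CPM in A, 113 in B, 161 in C, 82.8 in D and 187 in E. The groups overlapped, since WT D lay below all KO tumours and WT B inside their range, while WT A, C and E lay above it. The means were 107.3 ± 8.24 CPM (KO, SD, n = 6) and 134 ± 40.7 CPM (WT, SD, n = 5). The log2 fold change was -0.33 (95% interval -0.73 to 0.08, adjusted p = 0.301 by edgeR). It was -0.18 without WT E, -0.46 without WT D (adjusted p = 0.0917 by edgeR) and -0.32 without WT A, B and C. An exact two-sided permutation test of log2(CPM + 1) over 462 splits of the tumours gave p = 0.199. A lower Myc level was therefore not shown, and the interval leaves room for one as large as 0.73 on the log2 scale. The tumours with the most Myc and the most Nop16 were not the same. WT E had the highest Myc and the second lowest WT level of Nop16. WT B had the highest Nop16 and the second lowest WT level of Myc. WT D went the other way, with the lowest WT level of both genes (Nop16 50.4 CPM, Myc 82.8 CPM). Short transcripts took a larger share in WT B, and the coding sequence of Nop16 has only 543 bases. Within the 6 KO tumours, log2(CPM + 1) of Myc and Nop16 had a Pearson r of 0.086 (exact permutation p = 0.881) and a Spearman rho of -0.20 (exact permutation p = 0.714). Without KO B and D, the tumours farthest from the median of Myc, r was 0.32 over 4 tumours. With the length trend removed, r was 0.14 (exact permutation p = 0.821) and rho 0.26 (exact permutation p = 0.658). This was the only pair of genes correlated, and no coefficient was computed over the 5 WT tumours.

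**Figure D2:**
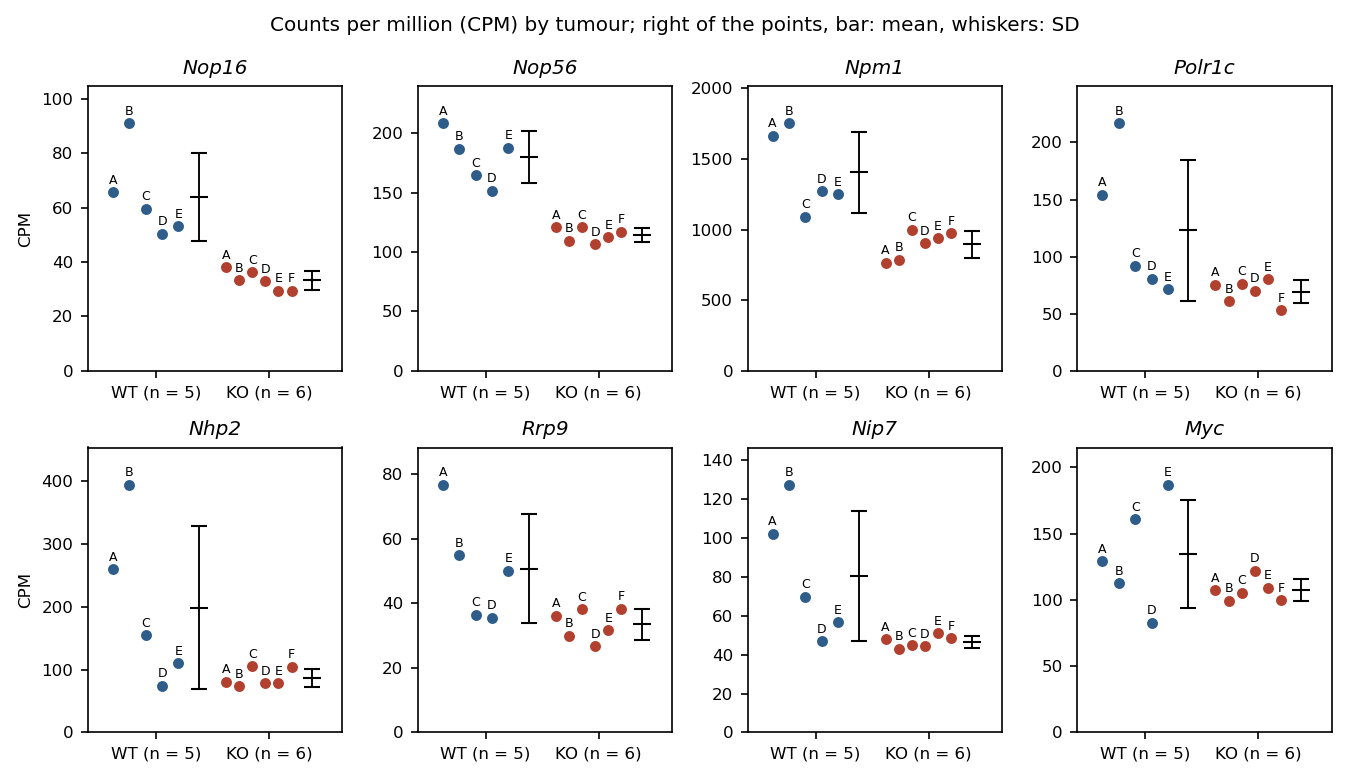
CPM of Nop16, of the member with the smallest unadjusted p in each role group and of Myc, in each tumour (letters) of 5 WT and 6 KO hosts; the horizontal bar and whiskers right of the points are the mean and SD. All KO points of Nop16, Nop56 and Npm1 lie below all WT points, the WT points of Polr1c, Nhp2 and Nip7 are high in A and B and near the KO range in D, and Myc points of the groups overlap.

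The windows before the starts of Nop16 and Nop56, the members with the widest relative gaps between groups, are shown beside those of Nop2 and Rrn3, which hold a Myc-Max E-box. Each is the 250 bases before the RefSeq start on GRCm38.p6, read 5′ to 3′ on the strand of the gene, and capitals mark CACGTG, the palindromic E-box, and CCGGAAG, an ETS family motif. They cover chr13:54590075-54590324 (minus) for Nop16, chr2:130274162-130274411 (plus) for Nop56, chr6:125131633-125131882 (plus) for Nop2 and chr16:13780449-13780698 (plus) for Rrn3.
Nop16: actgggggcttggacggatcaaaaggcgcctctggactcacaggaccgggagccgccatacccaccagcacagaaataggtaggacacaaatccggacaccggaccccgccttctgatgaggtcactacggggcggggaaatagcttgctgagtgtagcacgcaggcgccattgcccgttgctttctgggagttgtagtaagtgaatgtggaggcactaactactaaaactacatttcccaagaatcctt
Nop56: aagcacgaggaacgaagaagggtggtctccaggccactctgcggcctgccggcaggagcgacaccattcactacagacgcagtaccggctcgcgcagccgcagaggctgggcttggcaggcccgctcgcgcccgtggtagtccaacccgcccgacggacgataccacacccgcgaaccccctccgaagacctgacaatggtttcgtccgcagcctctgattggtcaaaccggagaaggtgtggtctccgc
Nop2: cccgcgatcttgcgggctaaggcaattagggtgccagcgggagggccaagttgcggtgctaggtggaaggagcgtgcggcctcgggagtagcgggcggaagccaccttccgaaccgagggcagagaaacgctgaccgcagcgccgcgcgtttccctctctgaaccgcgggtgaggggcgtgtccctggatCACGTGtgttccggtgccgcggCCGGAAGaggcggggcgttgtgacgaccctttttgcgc
Rrn3: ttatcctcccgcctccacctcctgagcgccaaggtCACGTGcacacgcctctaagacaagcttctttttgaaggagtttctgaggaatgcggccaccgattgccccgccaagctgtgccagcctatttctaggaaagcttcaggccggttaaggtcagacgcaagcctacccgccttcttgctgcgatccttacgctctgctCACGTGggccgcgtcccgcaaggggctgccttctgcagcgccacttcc
Neither motif was found in the windows of Nop16 and Nop56, Nop2 had 1 of each, and Rrn3 had 2 E-boxes. RefSeq windows of 300 bases, 250 before and 50 after the start, were matched for 32 of 39 members; Rrp12, Rrs1, Npm1, Tcof1, Fbl, Myc and Bop1 had no entry in the table. CACGTG was present in 8 of these 32 members (25%), Rrn3, Wdr43, Utp20, Imp4, Tsr1, Nop2, Pes1 and Mybbp1a, and in 8.09% of all 27025 genes with a window. None of the 8 had an unadjusted p under 0.05, beside 15.5% of all genes lower and 8.57% higher. With 8 genes, such a count differs little from those shares. Their median log2 fold change was -0.005, against -0.33 in the other matched members without Nop16. This order was turned without WT A, B and C, with medians of -0.27 in the 8 and -0.14 in the others. CCGGAAG on either strand was present in 9 of 32 members (28.1%) and in 9.93% of all genes. The 9 were Polr1c, Rrn3, Nolc1, Nhp2, Gar1, Tsr1, Nop2, Nip7 and Ebna1bp2. Their median log2 fold change was -0.41, against -0.20 in the other matched members without Nop16. At an unadjusted p under 0.05, 4 of the 9 were lower, as were 15.5% of all genes. Without WT A, B and C, this order was also turned, with medians of -0.18 in the 9 and -0.21 in the others. A match is a string of letters in a window and says nothing on binding.

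Transcription of ribosomal DNA is carried out by RNA polymerase I, here represented by its subunits Polr1a, Polr1b and Polr1c, the initiation factor Rrn3, the architectural factor Ubtf, and Tcof1 and Nolc1, nucleolar phosphoproteins. Polr1c was the lowest in KO relative to WT of these 7. In KO tumours it ranged from 53.2 to 80.4 CPM with a median of 72.9, and WT tumours had 154 CPM in A, 217 in B, 92.2 in C, 80.7 in D and 71.4 in E. Only WT A to D exceeded all KO values. The log2 fold change was -0.82 (SE 0.27, adjusted p = 0.113) and -0.12 without WT A, B and C. Polr1a, the catalytic subunit, had a log2 fold change of 0.02 (SE 0.28), but its WT values ran from 30.0 CPM in A to 103 in E around a KO range of 42.5 to 65.1, and its value without WT A, B and C was -0.59. Polr1b, the second large subunit, went from -0.20 to -0.70 in the same way and Nolc1 from -0.33 to -0.81, while Nolc1 was at -0.02 without WT E. Rrn3 (0.11), Ubtf (0.05) and Tcof1 (-0.03) had log2 fold changes smaller than their standard errors. Of the 7 genes, 4 had a log2 fold change below 0 and the median was -0.03; without WT A, B and C it was -0.18.

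Box C/D particles hold the methyltransferase Fbl and the scaffold proteins Nop56 and Nop58. Nop56 had the smallest p-value of the tested members. Its KO range was 106 to 121 CPM with a median of 115, and WT tumours had 208 CPM in A, 187 in B, 164 in C, 152 in D and 188 in E. The groups did not overlap and WT D and E lay above the KO range like the other 3. Nop56 was at 115 ± 6.06 CPM in KO (SD, n = 6) and 179.9 ± 22.2 CPM in WT (SD, n = 5), and its log2 fold change of -0.65 (SE 0.13) had an adjusted p of 0.0663 by edgeR and 0.000105 by DESeq2. It remained at -0.56 without WT A, B and C. The gene (chromosome 2, 130274430 to 130279313, plus strand) overlaps 5 annotated small nucleolar RNAs of the same strand. Nop58, its partner, was at 106 to 156 CPM in KO and 132 to 187 CPM in WT, with a log2 fold change of -0.31 (SE 0.16, adjusted p = 0.255). Fbl, the gene of the methyltransferase, had a log2 fold change of 0.09 (SE 0.22). Differences between these 3 genes were not tested.

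Box H/ACA particles consist of the pseudouridine synthase Dkc1 with Nhp2, Nop10 and Gar1. All 4 had negative log2 fold changes, with a median of -0.59, or -0.13 without WT A, B and C. Nhp2 ranged from 73.8 to 105 CPM in KO with a median of 79.7, and WT tumours had 260 CPM in A, 394 in B, 154 in C, 74.2 in D and 109.8 in E. WT D lay inside the KO range. The log2 fold change of -1.19 (SE 0.35, adjusted p = 0.0989), the most negative among all members, was -0.08 without WT A, B and C. Nop10, with the shortest coding sequence of the list at 192 bases, had 47.2 to 63.9 CPM in KO and 63.5 to 236 CPM in WT, where B stood far above the next highest tumour, C at 90.7 CPM. Its log2 fold change was -0.98 (SE 0.30, adjusted p = 0.105), -0.48 without WT B and -0.27 without WT A, B and C. Dkc1 (-0.19, SE 0.20) and Gar1 (-0.13, SE 0.14) differed by less than their standard errors.

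The small subunit group held 10 genes of the processome and later steps. Rrp9, a U3 small nucleolar ribonucleoprotein component, had the smallest p-value among them. It ranged from 26.7 to 38.3 CPM in KO with a median of 34.0, and WT tumours had 76.8 CPM in A, 54.9 in B, 36.5 in C, 35.6 in D and 50.2 in E. WT C and D lay inside the KO range and the other 3 above it. The log2 fold change was -0.60 (SE 0.21, adjusted p = 0.121) and -0.35 without WT A, B and C. Imp3 and Imp4 join the same U3 particle. Imp3 had a log2 fold change of -0.75 (SE 0.27, adjusted p = 0.131) that turned to 0.14 without WT A, B and C, and Imp4 had -0.29 (SE 0.14, adjusted p = 0.23), which became -0.04. Nob1, the endonuclease that completes the 3′ end of the small subunit RNA, was at -0.44 (SE 0.18, adjusted p = 0.16) and -0.10 without those tumours. The processome members Nop14 (0.11), Utp15 (-0.15) and Wdr43 (-0.21), the large scaffold Utp20 (0.26), the export-linked Rrp12 (0.08) and the GTPase-like Tsr1 (-0.09) had unadjusted p-values over 0.05. Without WT A, B and C these 6 all had negative values, from -0.11 for Nop14 to -0.62 for Tsr1. In the small subunit group as listed, 7 of 10 log2 fold changes were below 0, with a median of -0.18, or -0.27 without WT A, B and C.

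Large subunit factors were the group of Nop16. Nip7, a factor of pre-ribosomal RNA processing for this subunit, had the smallest p-value of the other 9. It ranged from 43.1 to 51.2 CPM in KO with a median of 46.4, and WT tumours had 102 CPM in A, 128 in B, 69.9 in C, 46.8 in D and 56.7 in E. WT D lay in the middle of the KO range and the other 4 above it. The log2 fold change was -0.79 (SE 0.23, adjusted p = 0.0976) and -0.14 without WT A, B and C. Bop1, Pes1 and Wdr12 form a single complex, the PeBoW complex, and differences between these genes were not tested. Wdr12 was at 25.6 to 33.1 CPM in KO and 34.4 to 47.1 CPM in WT, without overlap, with a log2 fold change of -0.47 (SE 0.14, adjusted p = 0.0997; -0.40 without WT A, B and C). Bop1 had -0.24 (SE 0.14, adjusted p = 0.315) and Pes1 had 0.08 (SE 0.14, adjusted p = 0.746). Ebna1bp2, an early assembly factor, had -0.61 (SE 0.24, adjusted p = 0.157), and this was -0.01 without WT A, B and C. Gnl3, the nucleolar GTPase nucleostemin, had -0.34 (SE 0.14, adjusted p = 0.167) and -0.35 without them. Nop2, an RNA methyltransferase, had -0.41 (SE 0.21, adjusted p = 0.254), and WT E alone stood at 147.9 CPM against 59.4 to 79.1 CPM in the other 10 tumours. The value of Nop2 was -0.11 without WT E and -0.78 without WT A, B and C. Rrp1 (0.09) and Rrs1 (0.08) were closer to 0 than their standard errors. Of the 9 genes without Nop16, 6 were below 0, with a median of -0.34 (-0.14 without WT A, B and C), and 4 were lower at an unadjusted p under 0.05, beside 52% and 15.5% of all genes.

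Genes for abundant nucleolar proteins had log2 fold changes of both signs. Npm1, the nucleolar chaperone nucleophosmin, was at 767 to 999 CPM in KO with a median of 922, and WT tumours had 1664 CPM in A, 1753 in B, 1092 in C, 1274 in D and 1249 in E. The groups did not overlap, and the gap was narrow between WT C and KO C. The log2 fold change was -0.65 (SE 0.18), with an adjusted p of 0.094 by edgeR and 0.00868 by DESeq2, and -0.49 without WT A, B and C. Ncl, nucleolin, had a log2 fold change of 0.004 (SE 0.20; 95% interval -0.43 to 0.43). Ddx21, an RNA helicase that couples polymerase I to processing, had 0.28 (SE 0.19, adjusted p = 0.379), the highest of all members in the full set, and 0.08 without WT A, B and C. Mybbp1a, a nucleolar Myb-binding protein, had 0.15 (SE 0.30), with WT values from 93.4 CPM in C to 334 in E around a KO range of 163 to 218, and -0.50 without those tumours.

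**Figure D3:**
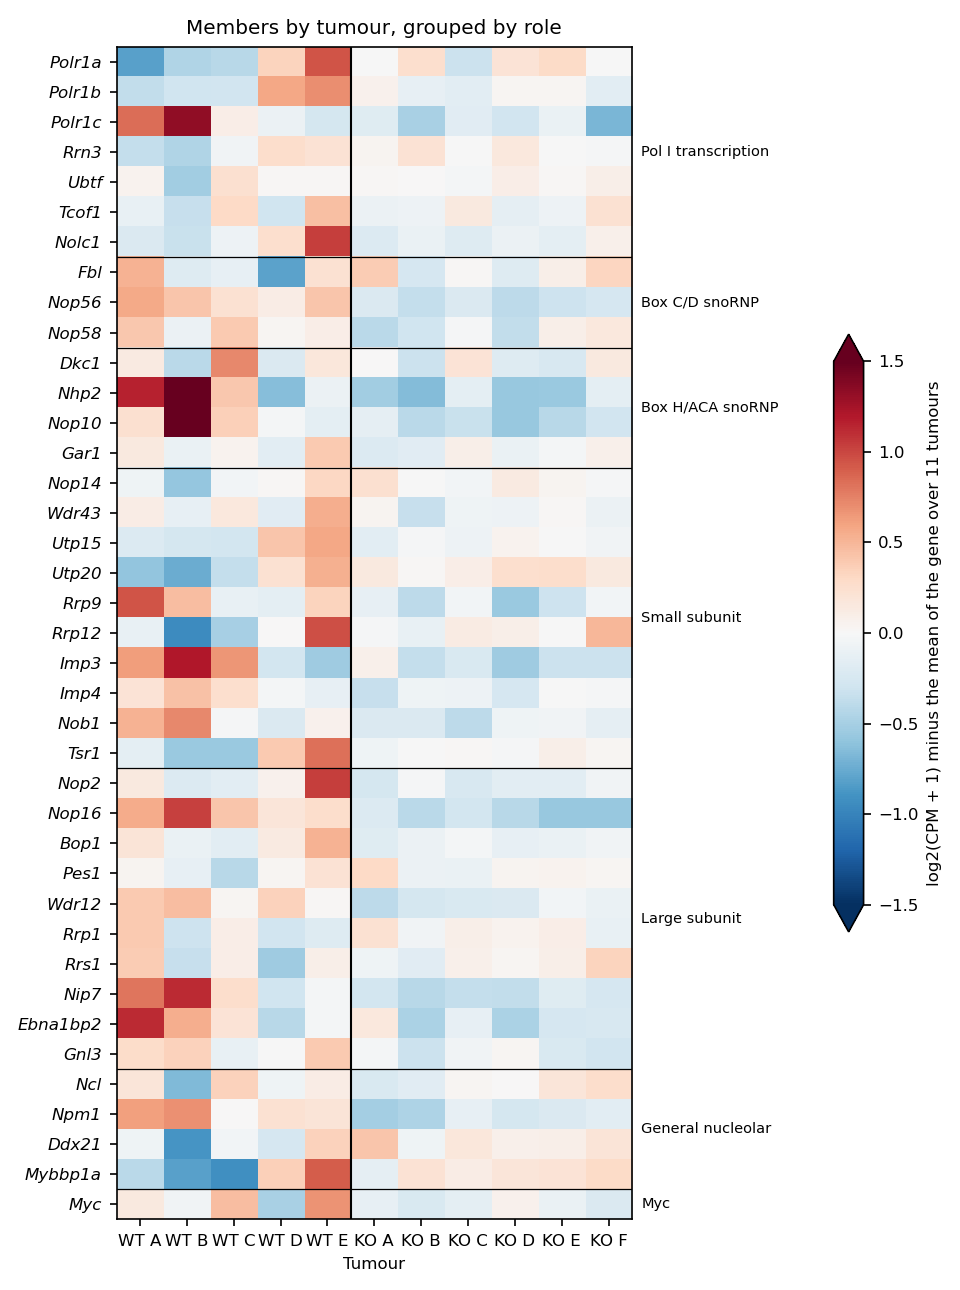
Deviation of log2(CPM + 1) from the mean of each gene over 11 tumours, with the 39 members in rows by role and the WT and KO tumours in columns; red is above and blue below the mean, and the scale ends at 1.5 in both directions. The KO columns are pale throughout, the WT A and B columns are red for Polr1c, Nhp2, Imp3, Nip7 and Ebna1bp2, and the WT E column is red for Polr1a, Nolc1, Rrp12, Tsr1, Nop2 and Mybbp1a.

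The SD of log2(CPM + 1) was larger among WT than among KO tumours in 38 of 39 members, all but Nop58, and in 84.6% of all genes tested. Which WT tumour was highest went with gene length. Of the 9 tested members with a coding sequence under 1000 bases, 8 had their highest CPM in WT A, B or C and 1 in WT D or E. Of the 29 with 1000 bases or more, 11 had it in WT A, B or C, 16 in WT D or E and 2 in a KO tumour. Across the 38 members, the log2 fold change had a Spearman coefficient of 0.64 with coding length and 0.47 with transcript length; the same coefficients over all 14267 genes with a coding length were 0.42 and 0.47. The median log2 fold change was -0.65 in the 9 short members and -0.15 in the 29 longer ones, against -0.30 in 4663 short and 0.12 in 9604 longer genes of the whole table. With an offset for transcript length, the coefficient with transcript length across members was -0.06 and that with coding length 0.38. Without WT A, B and C it was -0.17 and -0.37, the medians of short and longer members were -0.08 and -0.31, and 31 of 38 members had a log2 fold change below 0, beside 49.0% of all genes. The order of the members by log2 fold change thus depended on these 3 tumours. How much of the genotype difference came from the length composition of WT A, B and C was not tested.

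**Figure D4:**
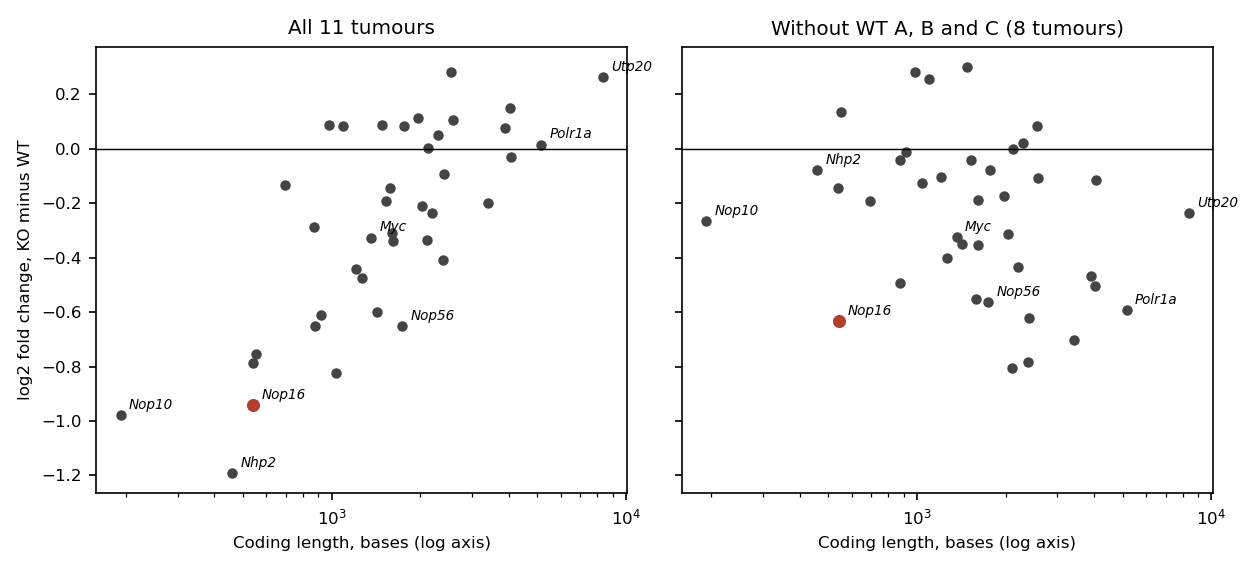
Log2 fold change (KO minus WT) of the 39 members against the length of the coding sequence on a log axis, in all 11 tumours (left) and without WT A, B and C (right), with Nop16 in red. On the left, points climb from Nhp2 and Nop10 to Utp20 (Spearman 0.64 without Nop16), and on the right the slope is turned (-0.37), while Nop16 and Nop56 lie well below 0 in both panels.

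Cell type markers also differed between the groups. Carcinoma epithelial markers had negative log2 fold changes in 9 of 9 genes, 3 of them at an unadjusted p under 0.05. Their summed level was 2737 to 5618 CPM in KO and 3109 to 9542 CPM in WT tumours. Of all genes, 15.5% were lower and 8.57% higher at that threshold, and 52% had a log2 fold change below 0. All 4 B cell markers were higher in KO at an unadjusted p under 0.05, from a summed 5.76 to 27.5 CPM in WT to 29.7 to 90.3 CPM in KO. Neutrophil markers summed to 268 to 2226 CPM in KO and 157 to 1004 CPM in WT, and 3 of 5 were higher at that threshold; of 6 macrophage markers 2 were. Fibroblast (4528 to 9612 CPM in KO, 2583 to 9511 in WT), T cell (41.1 to 250.6 against 104.9 to 284) and endothelial markers (142 to 199.96 against 97.5 to 204) had no gene at that threshold. Log2 fold changes below 0 were seen in 0 of 8 fibroblast, 0 of 6 macrophage and 0 of 5 neutrophil markers. They were seen in 1 of 4 T cell, 1 of 4 endothelial and 4 of 6 proliferation markers. Proliferation markers, which accompany demand for ribosomes, summed to 521 to 836 CPM in KO and 632 to 844 CPM in WT, with 1 of 6 higher and 0 lower at an unadjusted p under 0.05. Of 5 acinar markers only 2 were tested, and Cpa1, Cel and Pnlip had 0 counts in at least 1 tumour. The 5 markers summed to 7.11 to 504 CPM in KO and 12.8 to 1310 CPM in WT. The highest sums were 1310 CPM in WT E, 504 CPM in KO E and 158 CPM in WT A. The part of these differences in the values of the members was not tested.

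Further nucleolar genes were read from a wider list of 90 ribosome biogenesis factors outside the 39, of which 89 were tested and Wdr74 was not. None was called by edgeR, and at an unadjusted p under 0.05, 29 of 89 (32.6%) were lower and 3 higher in KO, beside 15.5% and 8.57% of all genes. The median log2 fold change was -0.21, or -0.17 without WT A, B and C, and 68 of 89 (76.4%) were below 0, as were 52% of all genes. The smallest p-values among lower genes belonged to Taf1d, Ddx56 and Emg1. Taf1d, a subunit of the polymerase I selectivity factor, was at 42.9 to 55.7 CPM in KO and 73.1 to 141 in WT (log2 fold change -1.04, SE 0.19, adjusted p = 0.0663), and -0.56 without WT A, B and C. Ddx56, a nucleolar helicase, was at 36.9 to 46.7 CPM in KO and 58.2 to 71.8 in WT (-0.57, SE 0.12, adjusted p = 0.0786), a difference that was -0.55 without WT A, B and C. Emg1, a small subunit RNA methyltransferase, was at 69.7 to 88.4 CPM in KO and 89.8 to 399 in WT (-1.33, SE 0.32, adjusted p = 0.0847), and -0.41 without those tumours. On the higher side, Efl1, a GTPase that releases Eif6, had 0.51 (SE 0.17, adjusted p = 0.113), Gnl3l, a relative of Gnl3, had 0.74 (SE 0.29, adjusted p = 0.149), and Taf1b, another selectivity factor subunit, had 0.49 (SE 0.20, adjusted p = 0.166). These were 0.27 for Efl1, 0.30 for Gnl3l and 0.71 for Taf1b without WT A, B and C.

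The partners and relatives of Myc showed no called gene. Of 12 network genes, 7 (58.3%) were below 0, with a median log2 fold change of -0.06 that was 0.03 without WT A, B and C. At an unadjusted p under 0.05, 2 (16.7%) were lower and 0 higher, close to the 52% and 15.5% of all genes below 0 and lower. Mycn, which encodes N-Myc, was at 0.42 to 12.2 CPM in KO and 5.64 to 81.1 CPM in WT (-2.35, SE 0.81, adjusted p = 0.124) with overlapping ranges. Its means were 5.05 ± 4.95 CPM (KO, SD, n = 6) and 25.6 ± 31.2 CPM (WT, SD, n = 5). The WT spread was thus larger than the WT mean, and the level was low in KO. The value of Mycn was -3.24 without WT A, B and C, where only WT D and E remained. Mlx, a partner of the Mondo branch, had -0.32 (SE 0.14, adjusted p = 0.196) and Mxd3, a Max-binding repressor, -0.37 (SE 0.31, adjusted p = 0.468). Mnt (0.41, SE 0.20, adjusted p = 0.229), Mlxip (0.54, SE 0.27, adjusted p = 0.243) and Mxd1 (0.37, SE 0.21, adjusted p = 0.284) had the smallest p-values above 0. Without WT A, B and C, Mlx was at -0.07, Mxd3 at 0.28, Mnt at 0.03, Mlxip at -0.06 and Mxd1 at 0.62, so Mxd3 and Mlxip changed sign.

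Known Myc targets outside the nucleolus were read in the same way. Of 20 genes, 14 (70%) had a log2 fold change below 0, beside 52% of all genes, with a median of -0.22, or -0.12 without WT A, B and C; none was called, and 6 (30%) were lower and 0 higher at an unadjusted p under 0.05, beside 15.5% and 8.57% of all genes. Nme1, a nucleoside diphosphate kinase, was at 18.1 to 33.0 CPM in KO and 33.8 to 179 CPM in WT without overlap (-1.92, SE 0.37, adjusted p = 0.0663), and -0.59 without those tumours. Pold2, a DNA polymerase delta subunit, had -0.56 (SE 0.16, adjusted p = 0.0928) and Phb, prohibitin, -0.56 (SE 0.16, adjusted p = 0.0957), which were -0.40 and -0.23 without WT A, B and C. Slc7a5, an amino acid transporter (0.46, SE 0.28, adjusted p = 0.319), Ppat (0.18, SE 0.15, adjusted p = 0.491) and Shmt2 (0.20, SE 0.19, adjusted p = 0.538), enzymes of purine and one-carbon metabolism, had the smallest p-values above 0, and were at 0.24, -0.08 and 0.27 without WT A, B and C. Myc itself, at -0.33, was not called in the same fit.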

How the data were processed

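RNA of tumour pieces from 6 KO and 5 WT hosts was sequenced as strand-specific paired-end libraries (NEB Next Ultra II Directional kit, Illumina). Per the labels and the methods of the study, reads were trimmed with Trimmomatic, aligned to mm10 (GRCm38) with HISAT2 (2.1.0) and counted with HTSeq (0.11.2), keeping unique alignments of mapping quality above 10. The authors deposited whole-number raw counts per gene and normalised values, a signal equal to the raw count divided by 1 factor per tumour (0.514 to 1.42). Of 54232 identifiers, 54165 had a symbol in GENCODE M21.

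Counts were compared by edgeR (4.0.16, R 4.3.3; quasi-likelihood F-test), with TMM, filterByExpr, no covariate and Benjamini-Hochberg adjustment over 16536 genes at 0.05. SE was the absolute log2 fold change over the root of F. CPM used TMM library sizes, and log values a pseudocount of 1; 3 counts were worth 0.0887 to 0.250 CPM. Permutation tests were exact and two-sided, with a smallest p of 0.00216. Ribosomal RNA genes were Gm42418, mt-Rnr1 and mt-Rnr2. Transcript length was that of the longest basic GENCODE transcript and coding length that of the longest coding sequence. The fits were tested on simulated data, where 31 of 100 genes given a log2 difference of 1 were recovered. With a difference of 2, 84 of 100 were. The simulated counts had no length trend and equal spread in both groups, unlike these tumours, so this recovery is only a rough guide. A count of 0 called members does not by itself exclude differences of 1 or less. The intervals of some members were narrower than that, such as -0.43 to 0.43 for Ncl.

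Members and lists were chosen with earlier results of these data known. All members are named, with values by tumour for Nop16, Myc and the member with the smallest unadjusted p per role, and 3 genes per direction from each wider list. Alternatives were DESeq2 (1.42.0), its size factors, no filter or 10 counts in every tumour, a gene length offset (spline, 4 degrees of freedom), the ribosomal RNA share as a covariate, the replicate letter as a block, each tumour left out, the deposited normalised values, further motifs and, chosen after the data were seen, leaving out WT A, B and C, coding length, and counts for the wider lists and at an unadjusted p. No libraries agreed within sampling noise (chi-square over degrees of freedom at least 35.6), so each counted as 1 sample. Each tumour is 1 animal. No sequencing batch was given in the sources used here.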

Additional observations from a re-analysis of the deposited data

Results flagged for a closer look

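In 84 groups of values (39 members, the ribosomal RNA share, the length coefficient and the total count, each in KO and in WT), 5 had a tumour whose distance from the nearest other exceeded the 95% limit of Dixon's test, while chance gives about 4.2. Nop10 was at 235.6 CPM in WT B against 63.5 to 90.7 CPM in the other WT tumours. WT B also had a ribosomal RNA share of 6.39% against 0.241% to 1.40%. Nop2 was at 147.9 CPM in WT E against 62.0 to 79.1 CPM in the other WT tumours. Wdr43 was at 71.4 CPM in KO B against 85.5 to 93.6 CPM in the other KO tumours, and Pes1 was at 135 CPM in KO A against 102 to 113 CPM. No explanation of these values was tested.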

How the results depend on the processing

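No member other than Nop16, which was not tested, was called by edgeR, and this held with DESeq2 size factors, either filter, the length offset, the ribosomal RNA covariate, the replicate block and without WT A, B and C. DESeq2 called 6 members lower, 11 genes of the wider list and 4 Myc targets, while 4.85% of all genes were called lower. The length offset called 2 wider genes and 1 Myc target, and no filter called 1 Myc target. Leaving out 1 tumour gave 0 to 8 members, 0 to 11 wider genes and 0 to 4 Myc targets called lower, with values above 0 only without WT D or E. Of all genes, 3.87% were called lower without WT D and 7.46% without WT E. At an unadjusted p under 0.05, 0 to 2 members were higher on leaving out 1 tumour and 1 was without WT A, B and C. The median of the members lay between -0.29 (ribosomal RNA covariate) and -0.059 (without WT E), and with 1 tumour left out its lowest value was -0.28 (without WT B). Nop16 was at -0.68 with the ribosomal RNA covariate and -0.63 without WT A, B and C. Myc was between -0.46 and -0.18 in all alternatives and was never called. With CACATG or CACGCG added to CACGTG, 68.8% of members held a motif, beside 30.9% of all genes, Nop16 included. The coefficient across members between log2 fold change and length was 0.47 with transcript length and 0.64 with coding length.

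Some members changed sign, mostly those near 0 but also Imp3, at -0.75 in the full set. With the length offset, log2 fold changes were -0.23 for Polr1a, -0.17 for Ubtf, 0.10 for Gar1, -0.0081 for Utp20, -0.050 for Rrp12 and -0.37 for Ncl. With the ribosomal RNA covariate they were -0.30 for Polr1a, -0.061 for Rrn3, -0.066 for Ubtf, -0.081 for Nop14, -0.018 for Utp20, -0.29 for Rrp12, -0.18 for Ncl and -0.21 for Mybbp1a. Without WT A, B and C they were -0.59 for Polr1a, -0.18 for Rrn3, -0.11 for Nop14, -0.24 for Utp20, -0.47 for Rrp12, 0.14 for Imp3, -0.077 for Pes1 and -0.50 for Mybbp1a. With no filter Tcof1 was at 0.014. Leaving out 1 tumour gave ranges of -0.14 to 0.36 for Polr1a, -0.051 to 0.13 for Ubtf, -0.11 to 0.10 for Tcof1, -0.057 to 0.26 for Fbl, -0.30 to 0.0056 for Dkc1, -0.0035 to 0.21 for Nop14, -0.23 to 0.012 for Utp15, -0.093 to 0.47 for Rrp12, -0.22 to 0.17 for Tsr1, -0.019 to 0.21 for Rrs1, -0.13 to 0.10 for Ncl and -0.010 to 0.51 for Mybbp1a. The cause was not tested.

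The replicate letters did not pair the tumours: same-letter correlations ran from -0.13 to 0.11, and no WT tumour correlated best with its own letter. With the letter as a block, 0 members were called, 9 were lower at an unadjusted p under 0.05, Nop16 was at -0.88, Myc at -0.26, Tsr1 at 0.0097 and Ncl at -0.020. The small number of tumours and the unequal length composition of the WT libraries limit what could be seen.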
